A study of Mus musculus with 38 samples.

Results

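The antiviral effector genes of the type I interferon response were followed across untreated, residual and relapsed tumors, and separately across 4 stages of progression, in the MMTV-PyMT mouse model of breast cancer. The 10 genes are Ifit1, Ifit2, Ifit3, Rsad2, Mx1, Oas1a, Oasl2, Isg15 (also G1p2), Usp18 and Ifi44. They were taken by name from the array files, which gave 16 probes of 41174 on the array and 10 of 28786 gene names. Focal hyperplasias came from FVB/n mice in which the MMTV promoter, active in mammary epithelium, drives the polyoma middle T oncogene and an actin promoter drives GFP, and they were transplanted into the mammary fat pads of FVB/n hosts. Untreated tumors (6) served as controls, residual tumors (6, regressed in the labels) were taken after the first dose of docetaxel, doxorubicin and cyclophosphamide, and relapsed tumors (4, resistant in the labels) after the fourth. Treatment began on early carcinomas 2 months after transplantation. The progression experiment held adenomas (5), carcinomas (6), disseminated cells from the lungs of mice with carcinomas (6) and lung metastases that grew after the primary tumor had been removed (5), none of them treated. The methods state that every population was sorted for GFP, which the actin promoter drives in any cell of donor origin and not in tumor cells alone. Lungs of several mice were pooled, by the methods, to obtain enough disseminated cells. The labels do not say which samples share a mouse, so the p-values below measure the spread between these samples, which are pools in that group.

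Type I interferons are secreted when cells sense foreign or misplaced nucleic acid, and they act through a shared receptor and the kinases Jak1 and Tyk2 on a complex that contains Stat2 and Irf9. This complex binds a short element in the promoters of many genes, and the effectors studied here are among the most strongly induced of them. In breast tumors the same genes can be switched on by tumor cells or by infiltrating immune cells. Interferon gamma induces many of the same genes.

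Promoter sequence is shown first because the genes share a regulator. The element was searched on both strands as TTTC, any 2 bases and a second TTTC, from 250 bases before to 50 bases after each gene start in the RefSeq table for GRCm38.p6. Promoters of 8 of the 10 genes were in the table, and those of Mx1 and Usp18 were not. The element was present in 5 of the 8 genes, against 3.99% of 27025 genes, and no match was found in the windows of Ifit2, Oasl2 and Ifi44. The 160 bases before the start are printed 5′ to 3′ for these 5 genes, with matches in capitals. They cover chr19:34640729-34640888 (+) for Ifit1, chr19:34583369-34583528 (+) for Ifit3, chr4:156200819-156200978 (−) for Isg15, chr5:120907526-120907685 (−) for Oas1a and chr12:26456453-26456612 (−) for Rsad2.
Ifit1: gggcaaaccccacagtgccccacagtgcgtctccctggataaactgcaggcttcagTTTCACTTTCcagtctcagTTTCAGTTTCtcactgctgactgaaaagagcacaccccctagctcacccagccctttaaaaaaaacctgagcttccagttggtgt
Ifit3: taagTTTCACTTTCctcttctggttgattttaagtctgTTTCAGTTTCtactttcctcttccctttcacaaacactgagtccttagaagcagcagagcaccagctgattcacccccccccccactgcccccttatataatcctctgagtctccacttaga
Isg15: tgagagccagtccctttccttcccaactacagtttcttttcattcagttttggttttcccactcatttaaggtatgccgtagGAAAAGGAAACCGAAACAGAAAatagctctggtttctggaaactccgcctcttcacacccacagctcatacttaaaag
Oas1a: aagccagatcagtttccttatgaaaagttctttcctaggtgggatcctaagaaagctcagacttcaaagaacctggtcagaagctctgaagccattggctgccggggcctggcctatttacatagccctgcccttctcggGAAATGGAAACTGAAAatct
Rsad2: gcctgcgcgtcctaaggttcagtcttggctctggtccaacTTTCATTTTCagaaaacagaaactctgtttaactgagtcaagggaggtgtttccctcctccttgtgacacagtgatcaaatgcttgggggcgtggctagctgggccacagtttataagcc
Isg15 held 3 overlapping matches and Oas1a 2 overlapping ones on the opposite strand, Ifit1 and Ifit3 held 2 separate matches each, and Rsad2 held 1. The match nearest to the start began 14 bases before it in Oas1a, 66 in Isg15, 85 in Ifit1, 120 in Rsad2 and 122 in Ifit3.

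Each Agilent array compared Cy5-labeled RNA of 1 sample with a Cy3-labeled Universal mouse reference, a pool of mouse RNA. Each value below is the log2 ratio of sample to reference, so 0 means equal signal and 1 a 2-fold higher signal in the sample. Each ratio depends on the probe and on the reference, and ratios of different genes were therefore not ranked against each other. Samples of the progression experiment went through an additional round of amplification, and the 2 experiments were normalized and tested apart. The sample channel was well above background at 50.5 to 64.3% of spots per array in the chemotherapy experiment and at 48.4 to 78.9% in the progression experiment. Arrays of the chemotherapy experiment shared 1 scan day and 5 slides. In the progression experiment slides 1 to 3 held carcinomas and metastases and slides 4 to 6 adenomas and disseminated cells, each set with a scan day of its own. A change was called at a limma adjusted p below 0.05 and at least 2-fold. Markers of mammary epithelium, a list of 8 genes, averaged 3.13 to 5.09 on all arrays except carcinoma replicate 6 (2.72), 5 of 6 arrays of disseminated cells (0.33 to 2.90) and metastases replicate 4 (0.31). On these arrays 10 macrophage markers averaged 3.51 to 5.12.

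None of the 10 effector genes was called changed between untreated, residual and relapsed tumors. At the chosen probe, the one of highest mean signal for a gene, all 10 had their highest group mean in residual tumors and their lowest in relapsed tumors. A second Rsad2 probe was highest without treatment, with a mean of 2.64 against 2.59 in the residual group (log2 difference −0.045). A further Rsad2 probe was nearly level between these groups, with a difference of 0.094. The second probes of Ifit2, Ifit3, Mx1 and Ifi44 kept the order of the chosen ones. Between residual and untreated tumors the median log2 difference of the 10 genes was 0.73 (range 0.26 for Mx1 to 1.13 for Oasl2), against −0.0036 over all genes, of which 48.9% were higher. With limma, 0 of 10 genes were called, against 0.0973% of all genes called higher. The lowest adjusted p was 0.323, for Ifit2, and 6 of 10 genes had an unadjusted p under 0.05, against 9.07% of all genes. An equal-variance test without moderation also called 0 of 10.

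**Figure D1:**
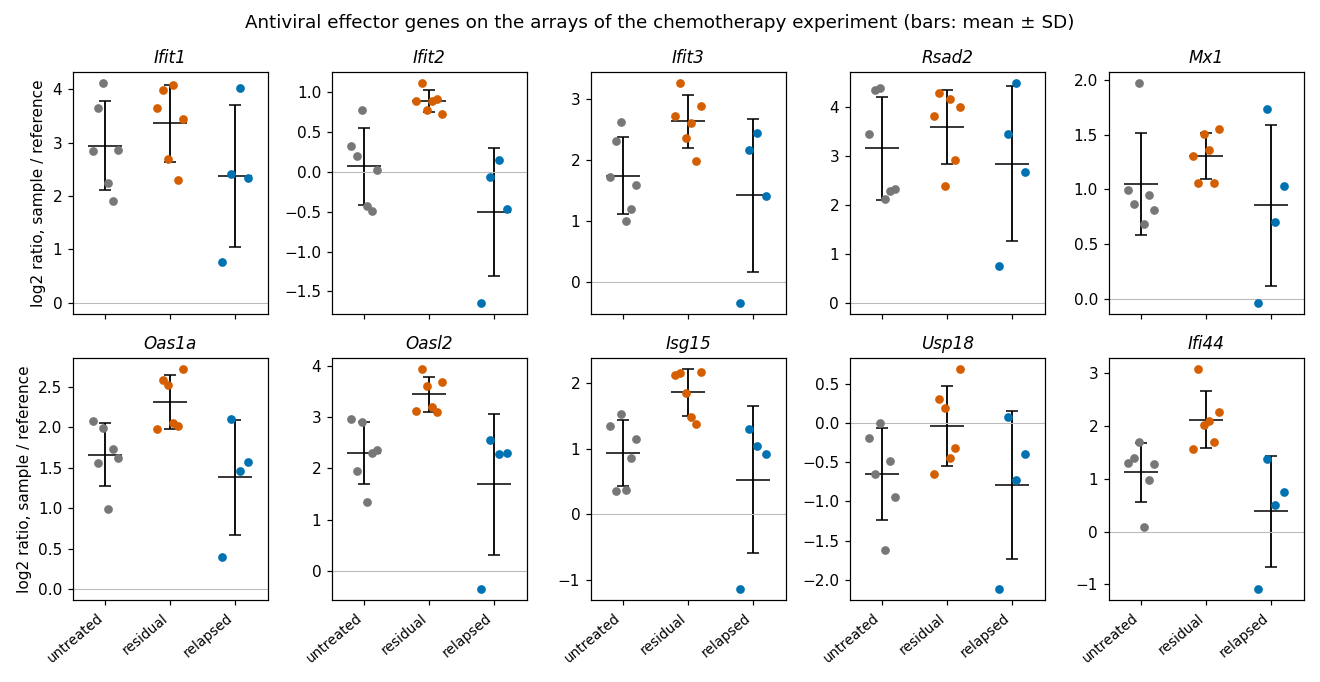
Log2 ratio of sample to reference (vertical axis, with its own scale for each gene) of the 10 genes in untreated (n = 6), residual (n = 6) and relapsed tumors (n = 4). Points are arrays in order of replicate number, and bars give the mean ± SD. Each panel shows the chosen probe of its gene. Residual tumors have the highest mean in all 10 panels, and the lowest relapsed point in each panel is replicate 1.

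Oasl2, a relative of the oligoadenylate synthetases with ubiquitin-like domains, differed most between untreated and residual tumors. Its log2 ratios ran from 1.34 to 2.97 in untreated tumors (median 2.33) and from 3.1 to 3.93 in residual tumors (median 3.40). It was the only one of the 10 genes whose groups did not overlap, against 0.573% of all genes without overlap and higher. The difference was 1.13 (standard error 0.41, adjusted p = 0.401), or 2.19-fold. In the relapsed tumors it stood at −0.35, 2.55, 2.27 and 2.30, all below the residual tumors and 3 of them within the range of the untreated ones.

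Isg15, a ubiquitin-like protein that is conjugated to other proteins, ran from 0.35 to 1.53 in untreated tumors (median 1.0) and from 1.37 to 2.16 in residual tumors (median 1.98). Only the highest untreated tumor reached into the range of the residual ones. Its 4 relapsed tumors, at −1.14, 1.30, 1.04 and 0.92, all lay below the residual tumors. Relapsed minus residual, the log2 difference was −1.32 (standard error 0.39, adjusted p = 0.301). The array file places the Isg15 probe on chromosome 17 of build mm7 (44534906 to 44534965), while RefSeq places the gene start on chromosome 4, so signal from a near-identical copy could not be told apart from the gene. Usp18, the protease that removes Isg15 from its targets and also blocks the interferon receptor, showed a smaller shift. It ran from −1.63 to 0.00 in untreated (median −0.56) and from −0.65 to 0.69 in residual tumors (median −0.06), with wide overlap, and stood at −2.12, 0.08, −0.73 and −0.39 in relapsed tumors.

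The 3 Ifit genes encode proteins with tetratricopeptide repeats that bind viral RNA and hold back its translation. Ifit2 was tight in residual tumors, at 0.72 to 1.11 (median 0.89), whereas untreated tumors spread from −0.50 to 0.78 (median 0.11) and relapsed tumors stood at −1.64, −0.06, 0.15 and −0.46. No relapsed tumor reached the residual ones, and the log2 difference of −1.39 (standard error 0.29, adjusted p = 0.0662), 2.62-fold, was the closest of the 10 genes to the threshold. It was called when all 38 arrays were normalized together, when dim probes were left out and without relapsed replicate 3, with adjusted p between 0.0415 and 0.653 over the alternatives. Ifit3 ran from 1.0 to 2.62 in untreated (median 1.66) and from 1.99 to 3.27 in residual tumors (median 2.66), and stood at −0.34, 2.17, 2.45 and 1.41 in relapsed tumors. Ifit1 overlapped widely, with medians of 2.86 in untreated (1.90 to 4.12) and 3.54 in residual tumors (2.30 to 4.07) and relapsed values of 0.76, 2.41, 4.01 and 2.33.

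Ifi44, a cytoplasmic protein linked to microtubules and to reduced viral replication, ran from 0.09 to 1.70 in untreated tumors (median 1.29) and from 1.56 to 3.08 in residual tumors (median 2.06). At −1.09, 1.38, 0.51 and 0.76, the relapsed tumors all lay below the residual ones, with a log2 difference of −1.73 (standard error 0.41, adjusted p = 0.128). Oas1a, a synthetase whose product activates RNase L, ran from 0.99 to 2.08 in untreated (median 1.67) and from 1.98 to 2.72 in residual tumors (median 2.28), and stood at 0.40, 2.10, 1.46 and 1.57 in relapsed tumors. Mx1, Ifit1 and Rsad2 differed least between residual and untreated tumors. Mx1, a GTPase that blocks influenza virus, ran from 0.69 to 1.98 in untreated (median 0.91) and from 1.06 to 1.55 in residual tumors (median 1.34). Rsad2, or viperin, an enzyme that makes a chain-terminating nucleotide, ran from 2.13 to 4.40 in untreated (median 2.89) and from 2.40 to 4.30 in residual tumors (median 3.92). Relapsed tumors stood at −0.04, 1.74, 0.70 and 1.03 for Mx1 and at 0.76, 3.46, 4.50 and 2.68 for Rsad2, so both genes overlapped between all 3 groups.

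All 10 genes were lower in relapsed than in residual tumors, with a median log2 difference of −1.10 (range −1.74 to −0.45) against 0.015 over all genes. With limma, 0 of 10 were called, against 0.208% of all genes called lower, and the equal-variance test also called 0. An unadjusted p under 0.05 was reached by 6 of 10 genes, against 7.75% of all genes. The groups did not overlap for Ifit2, Isg15, Oasl2 and Ifi44, 4 of 10, against 0.983% of all genes without overlap and lower. Relapsed and untreated tumors differed by a median of −0.36, with 0 of 10 genes called, against 0.00347% of all genes called either way, and 0 of 10 at an unadjusted p under 0.05, against 7.65% of all genes. The equal-variance test called 0 of 10 here too.

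Relapsed replicate 1 was the lowest relapsed tumor for 10 of 10 genes, whereas 24.9% of all genes were lowest there. The mean of the 10 genes was −0.48 on that array and 1.22 to 1.71 on the other relapsed arrays, against 0.68 to 2.20 in untreated and 1.71 to 2.58 in residual tumors. Without replicate 1 the median difference from residual tumors was −0.61 and that from untreated tumors 0.089, so the latter changed sign. On replicate 1 the mammary epithelium markers averaged 4.39 and the macrophage markers 0.20, against 4.58 to 4.92 and −0.36 to 1.05 on the other relapsed arrays. Within slide 4, which held 2 relapsed tumors and 1 residual tumor, the median difference was −1.88, and replicate 1 is one of those tumors. Residual and untreated tumors met only on slide 2, where 2 residual tumors stood above 1 untreated tumor for all 10 genes with a median of 0.64. Within slide 5, 2 relapsed tumors differed from 1 untreated tumor by a median of −0.0095, with 5 of 10 genes higher.

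Over the 16 chemotherapy arrays the 10 genes varied together, with a median Pearson correlation of 0.81 over the 45 pairs (range 0.52 to 0.97). After the group means were removed the median was 0.78, so the genes varied together within groups as well. Relapsed replicate 1, low for all 10 genes, is part of both values. These are descriptions over arrays that share a reference and a normalization. The closest pair was Isg15 and Oasl2, and Ifit1 and Rsad2 formed another close pair (0.93). Macrophage markers, 10 genes, averaged 1.16 (−0.023 to 2.53) in untreated, 0.62 (−0.22 to 1.88) in residual and 0.29 (−0.36 to 1.05) in relapsed tumors, and T and NK cell markers, 10 genes, averaged −0.076 (−0.18 to 0.075), 0.16 (−0.19 to 0.36) and −0.21 (−0.30 to −0.12). In each group 3 of the 10 T and NK markers were not well above background on any array. Markers listed for plasmacytoid dendritic cells, which make much interferon, were Siglech, Bst2, Ly6d, Ccr9, Tcf4 and Irf8. These 6 genes averaged −0.21 (−0.44 to 0.13), 0.21 (−0.033 to 0.37) and −0.26 (−0.45 to 0.13), and Siglech was above background on no residual or relapsed array. Whether interferon raised genes of this list, such as Bst2 and Irf8, was not tested, so their mean need not follow cell number. Of these 3 marker lists 0 genes were called in the 3 comparisons, and their part in the pattern was not tested. In sorted populations such as these, fewer cells of a type and less RNA per cell cannot be told apart.

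Upstream of the effectors, the transcription factors Stat2, Irf9 and Irf7 also had their highest mean in residual and their lowest in relapsed tumors. Stat2 (−1.25, adjusted p = 0.107), Irf9 (−0.85, adjusted p = 0.0726) and Irf7 (−1.55, adjusted p = 0.128), which amplifies interferon production, were not called between relapsed and residual tumors. Irf1, a factor induced mainly by interferon gamma, fell by 1.63 (adjusted p = 0.00366).

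The 97 other genes of the pathway that were listed by role gave 88 measured genes. In residual against untreated tumors 70 of 88 were higher, with a median of 0.23, and 0 were called. In relapsed against residual tumors 5 of 88 were called, all lower, against 0.208% of all genes called lower, and 13 were higher in value. They included Irf1 and 3 of 45 other effectors, Parp9, a partner of the ubiquitin ligase Dtx3l (−1.03, adjusted p = 0.00807), Samhd1, which depletes nucleotides needed by viruses (−1.26, adjusted p = 0.000124), and Herc5 as the array names it, of the family of Isg15 ligases (−1.29, adjusted p = 0.0343). Of 13 ligands 0 were called, and 5 of them were above background on no residual array. Ifnb1, interferon beta, stood at 3.32, 3.17 and 2.61 in untreated, residual and relapsed tumors, with SDs of 1.09 to 2.04 and adjusted p of 0.936 or more. Ifng differed by −0.94 between relapsed and residual tumors (adjusted p = 0.469), Ifnar1 by 0.013, and Ifnar2 by −0.44 (adjusted p = 0.826).

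In the progression experiment 7 of the 10 genes, at their chosen probes, had their highest mean in metastases. None of the 10 was called lower there than in carcinomas or disseminated cells. Against carcinomas 6 genes were called higher in metastases, Ifit1, Ifit2, Rsad2, Mx1, Isg15 and Usp18 (4.74% of all genes), and against disseminated cells 6, Ifit2, Ifit3, Rsad2, Oas1a, Isg15 and Usp18 (3.44% of all genes). Adenomas had the highest mean of Ifit3, Oasl2 and Ifi44 at the chosen probes. At the second probes of Ifit3 (1.13 against 0.39 in adenomas) and Ifi44 (0.55 against 0.03) metastases had the highest mean. Both second probes were well above background on 3 of 5 adenomas. At the chosen probes 5 genes were called lower in disseminated cells than in adenomas (5.84% of all genes). Carcinomas were lowest for 4 genes and disseminated cells for 5, and these neighbours in the order were not called different for any gene.

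**Figure D2:**
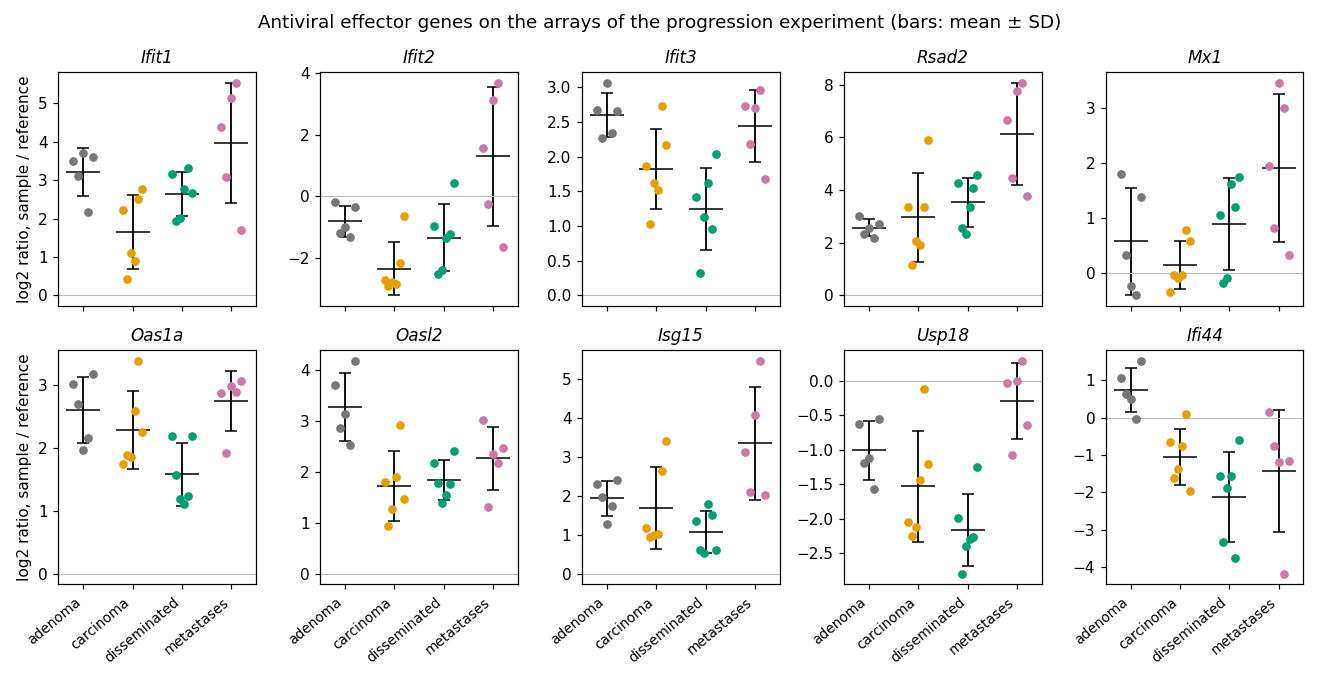
Log2 ratio of sample to reference (vertical axis, with its own scale for each gene) of the 10 genes in adenomas (n = 5), carcinomas (n = 6), disseminated cells (n = 6) and metastases (n = 5). Points are arrays in order of replicate number, and bars give the mean ± SD. Metastases spread most for Rsad2 and Ifit2, where 3 arrays stand high and 2 lie near the other groups.

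Metastases and carcinomas shared slides 1 to 3. The median log2 difference of the 10 genes was 1.45 against −0.048 over all genes, 9 of 10 were higher, and 6 of 10 were called higher, against 4.74% of all genes. The equal-variance test without moderation called 1 of 10, Ifit2, and gave the other 5 genes adjusted p of 0.0521 (Mx1) to 0.141 (Isg15). Rsad2 stood at 6.65, 4.44, 7.79, 8.06 and 3.78 in the 5 metastases. In carcinomas it ran from 1.17 to 5.89 (median 2.72). Carcinoma replicate 6 lay above 2 of the metastases, and the other carcinomas below all of them. The rise was 3.18 (standard error 0.79, adjusted p = 0.00769), or 9.08-fold.

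Ifit2 rose by 3.65 at its chosen probe (standard error 0.76, adjusted p = 0.00245), or 12.6-fold, while its second probe differed by 1.11 (adjusted p = 0.103), or 2.16-fold. Its metastases stood at 1.57, −0.26, 3.14, 3.70 and −1.66, against −2.92 to −0.66 in carcinomas (median −2.76). Carcinoma replicate 6, at −0.66, was above metastases replicate 5. The chosen Ifit2 probe was well above background on 4 of 6 carcinomas, 3 of 5 adenomas and 4 of 6 arrays of disseminated cells, so its low values carry more error. Ifit1 rose by 2.32 (adjusted p = 0.00757) from 0.42 to 2.77 in carcinomas (median 1.66) to 4.39, 3.09, 5.15, 5.52 and 1.70. Metastases replicate 5 lay within the carcinomas for this gene and the other metastases above them.

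Isg15 stood at 3.12, 2.09, 4.07, 5.47 and 2.01 in metastases and ran from 0.95 to 3.40 in carcinomas (median 1.09), a rise of 1.66 (adjusted p = 0.0362). Carcinomas split, with replicates 5 and 6 at 2.64 and 3.40 and the other carcinomas between 0.95 and 1.16. Usp18 rose by 1.24 (adjusted p = 0.0160), from −2.26 to −0.12 in carcinomas (median −1.74) to −0.02, −1.08, −0.01, 0.29 and −0.65. Mx1 rose by 1.77 at its chosen probe (adjusted p = 0.0235), from −0.36 to 0.77 (median −0.04) to 1.93, 0.81, 3.46, 3.01 and 0.32, and its probe was well above background on 5 of 6 carcinomas, 3 of 5 adenomas and 5 of 6 arrays of disseminated cells. For 0 of 10 genes did all metastases lie above all carcinomas, against 4.85% of all genes. Ifit3 (0.63, adjusted p = 0.153), Oas1a (0.46, adjusted p = 0.331), Oasl2 (0.55, adjusted p = 0.288) and Ifi44 (−0.38, adjusted p = 0.750) were not called. The Isg15 call was lost without any one of carcinoma replicates 1 to 4 or metastases replicates 1, 3 and 4 (adjusted p from 0.00815 to 0.141 over all alternatives), and the Mx1 call without carcinoma replicate 1 or metastases replicates 3 or 4 (0.00638 to 0.0844).

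Metastases against disseminated cells gave a median of 1.26 against 0.0082 over all genes, with all 10 genes higher and 6 of 10 called higher, against 3.44% of all genes. With only these groups in the fit 2 of 10 were called, Oas1a and Usp18, and with the equal-variance test 1 of 10, Usp18. Usp18 rose by 1.88 (standard error 0.35, adjusted p = 0.00186), from −2.80 to −1.25 in disseminated cells (median −2.29). Isg15 rose by 2.28 (adjusted p = 0.00974), from 0.54 to 1.80 (median 0.98). For these 2 of 10 genes all metastases lay above all disseminated cells, against 2.19% of all genes. Ifit2 rose by 2.65 (adjusted p = 0.0262), Rsad2 by 2.61 (adjusted p = 0.0346), Ifit3 by 1.2 (adjusted p = 0.0130) and Oas1a by 1.16 (adjusted p = 0.0183). Ifit1 (1.32, adjusted p = 0.142), Mx1 (1.02, adjusted p = 0.237), Ifi44 (0.69, adjusted p = 0.540) and Oasl2 (0.43, adjusted p = 0.472) were not called. The second Ifi44 probe was called higher in metastases, by 1.46 (adjusted p = 0.0397 with every probe tested). That probe was well above background on 2 of 6 arrays of disseminated cells. Without any one of disseminated replicates 2 and 3 or metastases replicates 1, 3 and 4 the calls of Ifit2 and Rsad2 were lost. That of Rsad2 was also lost without disseminated replicate 4. The Ifit2 call was lost in 7 of 26 alternatives (adjusted p from 0.00401 to 0.190 over all of them). The Rsad2 call was lost in 11 of 26 (0.00845 to 0.147), among them the deposited ratios, Aquantile normalization and no normalization between arrays. Without metastases replicate 5 Ifit1 was called (adjusted p = 0.0209). These groups lay on separate slides with separate scan days, so slide, scan day and group cannot be told apart here, nor in any comparison of adenomas with carcinomas or metastases, or of carcinomas with disseminated cells.

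Adenomas and disseminated cells shared slides 4 to 6, and 5 of 10 genes were called lower in disseminated cells, against 5.84% of all genes. The median was −0.95 against −0.0092 over all genes. Ifi44 fell by 2.85 at its chosen probe (standard error 0.64, adjusted p = 0.00495), or 7.23-fold, from 1.05, 0.63, 0.51, −0.05 and 1.52 in adenomas to between −3.77 and −0.59 in disseminated cells (median −1.73). Its second probe differed by −0.94 (adjusted p = 0.162), or 1.92-fold, with overlap. That probe was well above background on 3 of 5 adenomas and 2 of 6 arrays of disseminated cells, and the chosen probe on all of them. Oasl2 fell by 1.44 (adjusted p = 0.00712), from 3.71, 2.86, 3.14, 2.52 and 4.18 to between 1.38 and 2.41 (median 1.77). Ifit3 fell by 1.36 (adjusted p = 0.00494), from 2.68, 2.27, 3.07, 2.34 and 2.66 to between 0.33 and 2.04 (median 1.27). For Ifi44, Oasl2 and Ifit3, 3 of 10, the groups did not overlap, against 5.14% of all genes lower without overlap.

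Usp18 fell by 1.16 (adjusted p = 0.0242), from −0.62, −1.18, −1.12, −1.57 and −0.55 in adenomas, and its groups overlapped. Oas1a fell by 1.02 (adjusted p = 0.0255), from 3.02, 2.69, 1.96, 2.16 and 3.18 in adenomas to between 1.11 and 2.19 (median 1.40), with overlap. The Oas1a call was lost in 12 of 26 alternatives, with changes of −1.18 to −0.82 and adjusted p of 0.0160 to 0.0893 over all of them. Within slides the median was −0.46 on slide 4, −1.29 on slide 5 and −1.14 on slide 6, lower on each of them. Without adenoma replicate 1, or without adenoma replicate 5, 3 of 10 genes were called. The calls lost there were those of Usp18 and Oas1a, and Oas1a was also lost without adenoma replicate 2 or disseminated replicates 3, 4 or 5.

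**Figure D3:**
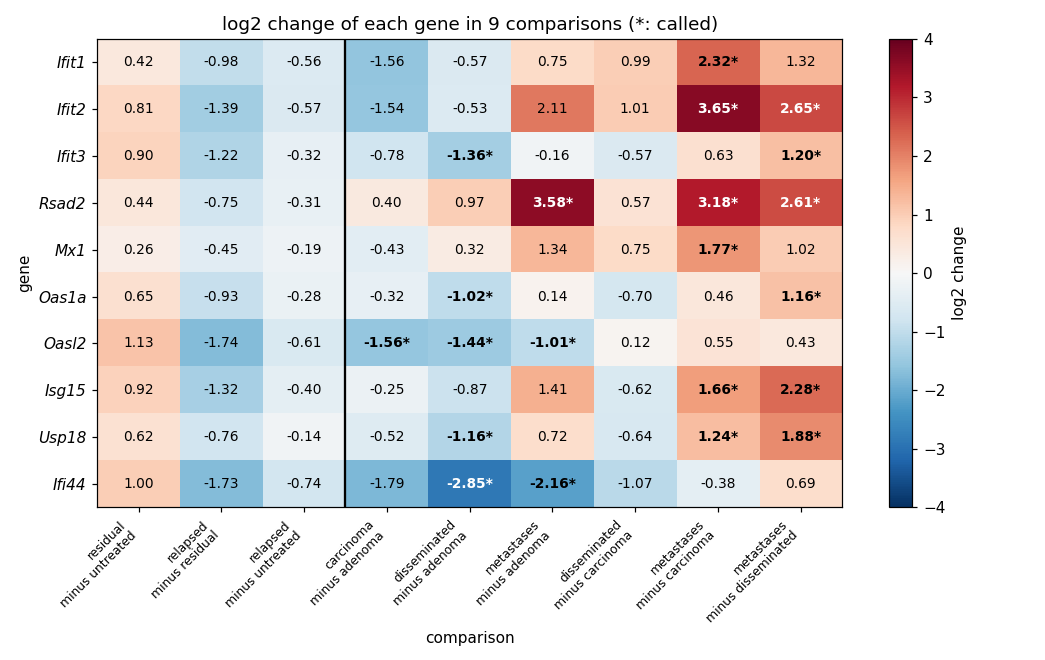
Log2 change of each gene (rows) in the 3 chemotherapy and 6 progression comparisons (columns, separated by a line). Color gives the change on a scale from −4 to 4, each cell prints it, and an asterisk in bold marks a call (limma adjusted p below 0.05 and at least 2-fold). Calls stand in the progression columns only, and Ifi44 is the gene that departs most from the others there.

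Carcinomas differed from adenomas by a median of −0.65 against 0.065 over all genes, with 1 of 10 called lower, against 2.14% of all genes. This was Oasl2, which fell by 1.56 (standard error 0.35, adjusted p = 0.00755) to between 0.95 and 2.92 (median 1.63). Metastases against adenomas split the group, with a median of 0.73 against 0.015 over all genes. Rsad2 rose by 3.58 (standard error 0.83, adjusted p = 0.00323), or 12-fold, from 3.03, 2.33, 2.55, 2.19 and 2.72 in adenomas, and it was the only gene, 1 of 10, whose metastases all lay above all adenomas, against 9.78% of all genes. Oasl2 fell by 1.01 (adjusted p = 0.0417) and Ifi44 by 2.16 (adjusted p = 0.0201), which made 1 of 10 called higher and 2 of 10 lower, against 6.08% and 8.51% of all genes. Without metastases replicate 5 this comparison had 6 calls, without replicate 2 it had 5, and without replicate 4 it had 1. The Oasl2 call was lost in 15 of 25 alternatives (adjusted p from 0.0137 to 0.120), among them the deposited ratios, median centring, Aquantile normalization and the equal-variance test, and without any one of adenoma replicates 1, 3 and 5 or metastases replicates 2, 3 and 4, and the Ifi44 call in 4 of 25, one of them without metastases replicate 4. Ifit2 averaged −0.82 in adenomas and 1.30 in metastases at its chosen probe and was not called. In 8 of 25 alternatives it was called higher (adjusted p from 0.00499 to 0.176 over all of them). Among these were the deposited ratios, median centring and all 38 arrays normalized together. Without metastases replicate 2 or 5, Ifit2, Isg15 and Mx1 were called higher, and Mx1 also without adenoma replicate 1. Disseminated cells against carcinomas gave a median of −0.23 against −0.067 over all genes, 5 of 10 genes higher and 0 called with limma or the equal-variance test, against 11.6% of all genes called either way, and 1 of 10 had an unadjusted p under 0.05, against 38% of all genes.

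Metastases fell into high and low arrays. The mean of the 10 genes was 2.64, 3.04 and 2.99 in replicates 1, 3 and 4 and 1.38 and 1.16 in replicates 2 and 5. Carcinomas ranged from −0.044 to 0.64 in replicates 1 to 4 and stood at 1.61 and 1.47 in replicates 5 and 6, both on slide 3. Within slides, the median of metastases minus carcinomas was 1.73 on slide 1, with 10 of 10 genes higher, and 2.46 on slide 2, with 9 of 10 higher. On slide 3, which held 1 metastasis and 2 carcinomas, it was −0.23 with 4 of 10 higher. With slide as a fixed block in the model 6 of 10 genes were still called.

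**Figure D4:**
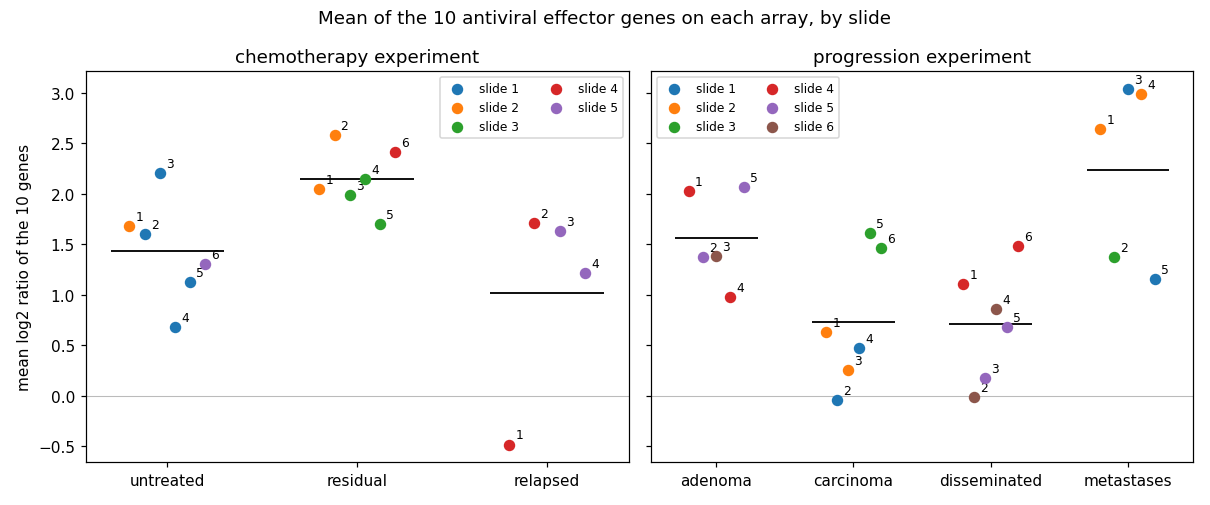
Mean log2 ratio of the 10 genes (vertical axis) on each array, by group, with color for the slide and a number for the replicate; slide numbers count within an experiment. Lines mark group means. Relapsed replicate 1 lies at −0.48, the 2 carcinomas of slide 3 lie above the other carcinomas, and metastases 1, 3 and 4 lie above every other progression array.

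Macrophage markers were higher in the metastases with high effector genes and were also high in disseminated cells. They averaged 3.52, 4.33 and 5.12 in metastases 1, 3 and 4 and 1.19 and 1.34 in replicates 2 and 5. In disseminated cells they averaged 3.51 to 5.0, above every adenoma (0.13 to 0.70), while the mean of the 10 effector genes ran only from −0.0074 to 1.48 in disseminated cells and from 0.98 to 2.07 in adenomas. Carcinoma replicate 6 had 4.87 and the other carcinomas 0.11 to 1.01. Of the 10 macrophage markers 8 were called higher in disseminated cells than in adenomas, 2 in metastases than in carcinomas, and 0 between metastases and disseminated cells. Alveolar macrophage markers averaged 4.58 in disseminated cells, 3.56 in metastases and 1.51 in carcinomas. Lung epithelium markers averaged 3.31, 2.52 and 1.19 in the same order. Of these 6 genes, 4 were called higher in disseminated cells than in carcinomas and 3 in metastases than in carcinomas. Neutrophil markers averaged 4.28 in disseminated cells, 2.21 in metastases and 2.08 in carcinomas. The lungs were those of the FVB/n hosts, and whether host cells remained after sorting was not tested. T and NK cell markers averaged 1.44 in adenomas, 0.31 in carcinomas, 1.36 in disseminated cells and 0.70 in metastases. Plasmacytoid dendritic cell markers stayed between −0.57 and 0.83 on all progression arrays, and Siglech was above background on no array of adenomas, disseminated cells or metastases. With carcinoma replicate 6 and metastases replicate 4 both left out, a choice made after seeing the data, 5 of 10 genes were still called higher in metastases than in carcinomas, with Mx1 lost (adjusted p = 0.0610), and the median was 1.31. Metastases replicates 1 and 3, with macrophage marker means of 3.52 and 4.33, remained in that fit. The part of these cells in the differences was not tested.

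**Figure D5:**
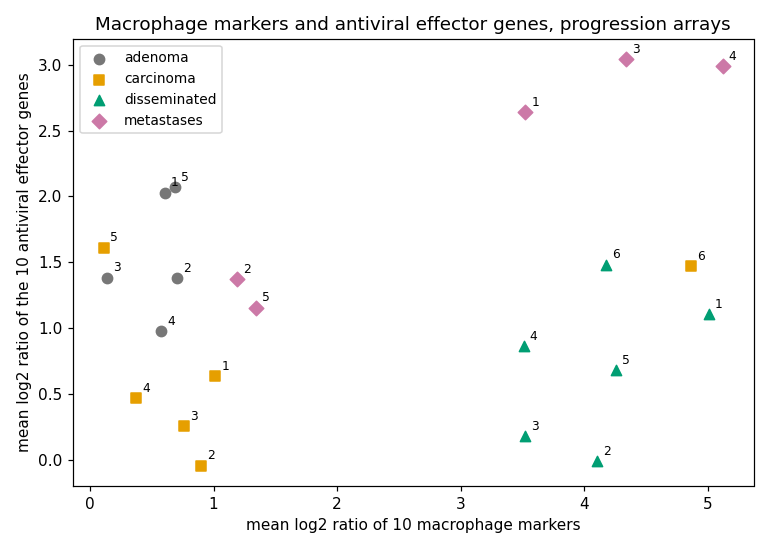
Mean log2 ratio of the 10 antiviral effector genes (vertical axis) against that of 10 macrophage markers (horizontal axis) on the 22 progression arrays, with symbols for the groups and replicate numbers. Disseminated cells lie at the right with low effector genes, and metastases 1, 3 and 4 at the right with high ones.

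The array held more than 1 probe for Rsad2, Ifit3, Ifi44, Ifit2 and Mx1, and their sizes of change differed. The other 2 probes of Rsad2 followed the chosen one on the progression arrays (Pearson correlation 0.88 and 0.95, n = 22) and rose in metastases over adenomas by 2.11 (adjusted p = 0.0131) and 3.53 (adjusted p = 0.00184). Over carcinomas they differed by 1.33 (adjusted p = 0.111, not called) and 2.92 (adjusted p = 0.00762), against 3.18 for the chosen probe. The second probe of Mx1 differed by 0.54 in metastases over carcinomas (adjusted p = 0.0245), which is under 2-fold, and was well above background on 3 of 6 carcinomas and 3 of 5 metastases. The second probe of Ifit2 was called in no comparison. The second Ifit3 probe, which the array file places at 34313887 to 34313946 of chromosome 19 in mm7, away from the first at 34289919 to 34289978, followed it at 0.96 on the chemotherapy arrays and 0.72 on the progression arrays. It may read a near-identical neighbour, so Ifit3 is uncertain. It rose by 1.32 in metastases over carcinomas (adjusted p = 0.0252), where the first probe was not called, and differed by −0.65 between disseminated cells and adenomas (adjusted p = 0.280), where the first was. The second probe was well above background on 3 of 5 adenomas, 3 of 6 carcinomas and 2 of 6 arrays of disseminated cells. Its low values therefore carry more error.

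Ifi44 depended on the probe. Its chosen probe fell by 2.16 in metastases against adenomas, with values of 0.14, −0.76, −1.19, −4.18 and −1.16 in metastases. The second probe, which the array file places elsewhere in the same stretch of chromosome 3, stood at 1.54, 1.24, 0.50, −0.55 and 0.00 in the same metastases and differed by 0.52 in the opposite direction (adjusted p = 0.455). This second probe was well above background on 3 of 5 adenomas and 5 of 5 metastases, and the chosen probe on all of them. Without metastases replicate 4 the change of the chosen probe was −1.48 (adjusted p = 0.0586). The probes correlated at 0.61 over the progression arrays and 0.80 over the chemotherapy arrays, where both were lower in relapsed than in residual tumors (−1.73 and −1.29). Over the progression arrays the chosen Ifi44 probe had a median correlation of −0.0033 with the other 9 genes, against 0.47 to 0.73 for each of those, and the median over the 45 pairs was 0.63.

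The regulators varied with the stage. Irf7 stood at 0.55 ± 0.81 (SD, n = 5) in adenomas, 0.83 ± 0.71 (SD, n = 6) in carcinomas, 0.38 ± 1.41 (SD, n = 6) in disseminated cells and 2.94 ± 0.41 (SD, n = 5) in metastases. It rose in metastases over carcinomas by 2.12 (adjusted p = 0.00888), over adenomas by 2.39 (adjusted p = 0.00381) and over disseminated cells by 2.56 (adjusted p = 0.00419). Stat2 fell by 1.86 from adenomas to carcinomas (adjusted p = 0.00112) and rose by 1.59 from carcinomas to metastases (adjusted p = 0.00165). Stat2 was also higher in disseminated cells than in carcinomas, by 1.16 (adjusted p = 0.00701). Irf9 was not called in any progression comparison, and Irf3, which starts interferon transcription, differed by less than 2-fold in all of them.

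Among the receptor and its kinases, Ifnar1 rose in disseminated cells over adenomas by 1.56 (adjusted p = 0.00419) and over carcinomas by 1.68 (adjusted p = 0.00107). Jak1 fell in metastases, by 1.09 from adenomas (adjusted p = 0.000336) and by 1.63 from disseminated cells (adjusted p = 4.07e-05). Ifnb1 stood above the reference in all groups, at 2.5 in adenomas, 4.15 in carcinomas, 4.50 in disseminated cells and 4.61 in metastases with SDs of 1.71 to 2.29, and was not called (adjusted p of 0.193 or more). Ifng fell by 3.54 from adenomas to carcinomas (adjusted p = 0.00519) and by 2.09 from adenomas to metastases (adjusted p = 0.0495), in the order of the T and NK cell marker means, whose list includes it.

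Of the 88 other pathway genes, 20 were called higher and 2 lower in metastases than in carcinomas, against 4.74% and 5.35% of all genes, with a median of 0.48. The largest were 3 effectors. Ifi202b, a DNA-binding protein, rose by 3.02 (adjusted p = 0.00634), Trim30a, a ubiquitin ligase, by 2.97 (adjusted p = 0.00736), and Parp14, an ADP-ribosyltransferase, by 2.67 (adjusted p = 0.000248). In disseminated cells against adenomas 12 were called higher and 7 lower, against 4.64% and 5.84% of all genes. Tlr7, a sensor of single-stranded RNA (4.31, adjusted p = 0.00125), Irf5 (3.85, adjusted p = 0.00163) and Ms4a4c (3.15, adjusted p = 0.00253), all known from myeloid cells, rose there while 5 of the 10 antiviral effectors fell. Oas2, another synthetase, fell by 2.84 in metastases against adenomas (adjusted p = 0.000175), in the direction of Oasl2 and opposite to Rsad2.

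Outside the members, the genes whose ratios most resembled the mean of the 10 standardized genes over the 16 chemotherapy arrays were the transcripts named NAP007796-001 (Pearson correlation 0.96) and BC020489 (0.95) on the array, Zc3hav1 (0.93), Oas1f (0.93) and Parp14 (0.93). Over the 22 progression arrays they were Phf11d (0.94), Cmpk2 (0.92), Dhx58 (0.92), NAP007796-001 (0.89) and Pnpt1 (0.89). Cmpk2 is the neighbour of Rsad2 in the genome, Dhx58 is an RNA sensor and Zc3hav1 an RNA-binding antiviral protein. NAP007796-001 was among the 5 closest in both experiments.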

How the data were processed

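The deposited files of 38 two-color Agilent arrays hold intensity values per spot that the authors took from Feature Extraction 10.7 and left unnormalized. A deposited table of normalized log2 ratios served as an alternative. The intensities were processed with limma 3.58.1 in R 4.3.3 (statmod 1.5.0) by the steps the methods name, which are normexp background correction, loess within each array and quantile normalization across the arrays of 1 experiment. The normexp offset of 50 is not given in the sources used here. Control spots were dropped, outlier spots were set aside and replicate spots were averaged. Names came from RefSeq accessions for 22951 probes and from the array file for 18223, and the probe of highest mean signal represented a gene. Probe positions are those of the array files for mm7. All groups of an experiment entered 1 limma fit without covariates, with Benjamini-Hochberg adjustment over 28786 genes. The 10 genes and all lists were chosen with earlier results of these data known. The named genes are the members, fixed ligands, receptors and factors, up to 3 called pathway genes with the largest change per comparison, and the 5 genes per experiment most correlated with the members. Parp9 was named after its value was seen, and 1 pathway gene is not reported here. The fit was tested on simulated data. Alternatives covered scaling, background, probe choice, slide and replicate blocks, the samples and test of the fit, and each array left out. The labels do not say whether equal replicate numbers pair the samples, and correlations between arrays did not settle it. Same-numbered pairs had a median of 0.038 against 0.0082 for other pairs of chemotherapy arrays. For progression arrays the medians were −0.017 and −0.0092. Above 0.1 were 6 of 14 same-numbered pairs of chemotherapy arrays and 8 of 31 of progression arrays.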

Additional observations from a re-analysis of the deposited data

Results flagged for a closer look

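Of 77 sets of values examined, each from the 4 to 6 arrays of 1 group, 5 held a sample far from the others of its group. Chance alone marks about 1 in 20 independent sets. These sets share arrays and genes that vary together, so that share is only a rough guide. Relapsed replicate 1 lay far below the other relapsed tumors for Isg15, at a log2 ratio of −1.14 against a next value of 0.92, and for Oasl2, at −0.35 against 2.27. Untreated replicate 3 stood high for Mx1, at 1.98 against 0.99. Carcinoma replicate 6 stood high for Ifit2, at −0.66 against −2.18. Metastases replicate 2 stood low for Oas1a, at 1.91 against 2.87.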

How the results depend on the processing

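The median difference of the 10 genes kept its sign under every alternative in all 9 comparisons, with 3 exceptions. For relapsed minus untreated it was 0.089 without relapsed replicate 1, for disseminated minus carcinoma it was 0.0039 without carcinoma replicate 5, and within slide 3 it was −0.23 for metastases minus carcinoma. Within slide 2 that comparison gave 2.46, and within slide 4 relapsed minus residual gave −1.88. The larger moves in the counts of called genes were as follows, and smaller moves under other alternatives are not all listed. Relapsed minus residual had 1 call with all 38 arrays normalized together and with dim probes left out, and 0 to 1 with an array left out. Disseminated minus adenoma had 3 with the deposited log2 ratios and 3 to 5 with an array left out. Carcinoma minus adenoma had 4 with only the groups compared in the fit, 2 with the equal-variance test and 3 with carcinoma replicate 6 and metastases replicate 4 left out together. Metastases minus adenoma had 1 with the equal-variance test, 1 with those 2 arrays left out and 1 to 6 with 1 array left out. Metastases minus carcinoma had 1 with the equal-variance test, and metastases minus disseminated had 1 with it and 2 with only the groups compared in the fit. With an array left out those 2 comparisons had 4 to 6 and 4 to 7. With the replicate block, metastases minus adenoma had 4 calls in place of 3 (Ifit2 was added), and the other 8 counts did not change. Slide as a fixed block could not be fitted for comparisons between slides 1 to 3 and 4 to 6. The cause of these changes was not tested. The number of arrays limits precision, and dim probes of Ifit2 and Mx1, and dim second probes of Ifit3 and Ifi44, limit their low values.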
